A study of Mus musculus with 6 samples.

Results

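The genes of the NF-κB transcription factor family and its inhibitors were followed in regulatory T cells (Treg cells) of the mouse colon: 10 members of the 32161 rows in the deposited count table, each found as the row whose symbol matched the member's name. They are the 5 subunits Nfkb1, Nfkb2, Rel, Rela and Relb, the cytoplasmic inhibitor Nfkbia, the nuclear regulators Nfkbid, Nfkbiz and Bcl3, and the ubiquitin-editing inhibitor Tnfaip3. RNA of live CD45+, CD4+ and Foxp3+ cells, sorted by flow cytometry from the lamina propria of the colon, was sequenced in bulk from untreated mice of the C57/BL6 strain. WT libraries came from the genotype Foxp3YFP-Cre, in which a Cre recombinase tagged with a yellow fluorescent protein is made from the Foxp3 gene. KO libraries came from Il23rflflFoxp3YFP-Cre, which carries the same Cre and in addition a floxed Il23r, which encodes the receptor for interleukin-23. There were 3 libraries a group, each from a pool of at least 5 mice, and both groups carry the Cre. Ages are not given in the labels.

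NF-κB factors are dimers of subunits that share a Rel homology domain. In a resting cell, inhibitor proteins such as IκBα, the product of Nfkbia, hold dimers in the cytoplasm. A signal from the T cell receptor, a cytokine receptor or a TNF family receptor activates the IκB kinase, which marks the inhibitor for destruction and frees dimers such as those of p65 (Rela) or c-Rel (Rel) with p50 (made from Nfkb1). A second branch runs through the kinase NIK and the processing of the Nfkb2 product to p52, which pairs with RelB. Nfkbia and Tnfaip3, which encodes A20, are classic targets of the factors they restrain, so that the pathway limits itself. In Treg cells c-Rel is known for its part in their formation in the thymus, and p65 and c-Rel for upholding the identity of mature Treg cells.

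RefSeq start sites of 7 of the 10 members (12 windows in GRCm38.p6, each from 250 bases before to 50 bases after the start) were searched on both strands for matches to the κB consensus, the sequence NF-κB dimers bind, and for GGGNATTTC, a shorter form of it whose matches can overlap those of the consensus. The consensus was found in 8 windows of 6 members, against 4.51% of 32851 such windows over all genes. Windows of a gene can overlap. The only match in window 3 of Nfkb2 is a site that also lies in its window 2, so it is counted in both. GGGNATTTC was found in 4 windows of 4 members, against 0.947% of all windows. The matches describe letters in these windows and say nothing of binding in these cells. The windows of both self-limiting targets and of the subunits Rel and Rela are shown, since the comparison of Rel with Rela and the level of Tnfaip3 are described below. They are Tnfaip3 (first of its windows, chr10:19015361-19015660, minus strand), Nfkbia (chr12:55492598-55492897, minus strand), Rel (chr11:23770920-23771219, minus strand) and Rela (chr19:5637291-5637590, plus strand), written 5′ to 3′ on the strand of the gene with consensus or GGGNATTTC matches in capitals.
Tnfaip3: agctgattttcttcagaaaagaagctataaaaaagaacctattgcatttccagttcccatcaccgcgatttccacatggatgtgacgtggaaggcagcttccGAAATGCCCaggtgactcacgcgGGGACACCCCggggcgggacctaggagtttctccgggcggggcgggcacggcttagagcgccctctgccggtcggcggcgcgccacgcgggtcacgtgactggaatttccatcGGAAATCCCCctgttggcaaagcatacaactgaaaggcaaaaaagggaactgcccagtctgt
Nfkbia: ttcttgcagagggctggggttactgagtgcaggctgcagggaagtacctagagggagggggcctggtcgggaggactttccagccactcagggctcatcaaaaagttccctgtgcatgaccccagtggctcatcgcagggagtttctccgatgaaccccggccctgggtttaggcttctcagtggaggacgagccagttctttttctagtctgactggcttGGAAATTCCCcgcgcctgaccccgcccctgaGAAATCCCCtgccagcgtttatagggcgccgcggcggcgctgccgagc
Rel: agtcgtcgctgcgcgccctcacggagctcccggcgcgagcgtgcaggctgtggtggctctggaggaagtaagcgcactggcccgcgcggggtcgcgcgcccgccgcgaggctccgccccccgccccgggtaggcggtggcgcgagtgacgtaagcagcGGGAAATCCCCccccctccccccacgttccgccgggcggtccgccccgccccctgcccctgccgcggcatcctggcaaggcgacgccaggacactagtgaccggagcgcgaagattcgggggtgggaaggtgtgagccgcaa
Rela: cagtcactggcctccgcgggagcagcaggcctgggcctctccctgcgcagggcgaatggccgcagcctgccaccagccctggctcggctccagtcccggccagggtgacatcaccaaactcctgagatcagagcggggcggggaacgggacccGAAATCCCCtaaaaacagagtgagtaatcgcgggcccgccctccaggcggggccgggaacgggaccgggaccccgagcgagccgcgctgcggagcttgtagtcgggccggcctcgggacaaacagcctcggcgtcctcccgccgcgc
The consensus had 2 matches in the Tnfaip3 window, 1 in that of Nfkbia, 2 in that of Rel and 0 in that of Rela. The 2 of Rel start at bases 159 and 160 and overlap, while those of Tnfaip3 start at 126 and 239. GGGNATTTC had 2, 2, 1 and 1 matches in the same order.

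The libraries held 9680503 (WT2) to 20654340 (the library labelled KO1) estimated counts, and the RNA integrity number from 7.9 to 8.8 except in WT2, which had 5. Il23r was at 19.4, 38.3 and 13.6 CPM (counts relative to the scaled library size) in the WT libraries, at 4.99 and 8.96 CPM in KO2 and KO3, and at 18.4 CPM in the library labelled KO1, within the WT range. Counts per gene cannot show the loss of a floxed exon. Xist was at most 0.284 CPM in WT against at least 1180 CPM in KO, and 4 Y-linked genes together at 264 to 475 CPM in WT and 2.19 to 179 CPM in KO. Genotype and sex cannot be told apart in any comparison given here. The 8 T and Treg cell markers summed to 9224 to 9630 CPM in WT against 8670 to 9299 CPM in KO, with Ctla4 and Ptprc the most abundant, and Foxp3 was at 567 to 1384 and 1126 to 1603 CPM. The 12 macrophage and dendritic cell markers, led by Lyz2 and Csf1r, summed to 232 to 339 CPM in WT against 326 to 695 CPM in KO, and all 12 had a positive fold change with 0 called by edgeR (6 at an unadjusted p under 0.05). The epithelial markers, led by Clca1 and Fcgbp, summed to 16.9 to 46.7 CPM in WT and 63.0 to 151 CPM in KO. In WT, Clca1 was at most 1.51 CPM and Fcgbp at most 0.103 CPM, so other genes of the list made up most of the WT sum. Of the 8 tested, 6 had a positive log2 fold change, and Epcam (-0.89) and Cdh1 (-1.36) had a negative one. Of these 8, 1 was called, Fcgbp, which rose (edgeR, adjusted p = 0.0169). That call was lost when any WT library or KO3 was left out (edgeR, adjusted p from 0.0811 to 0.227), with KO2 and KO3 summed (0.064), with RNA integrity (0.107) or all sort batches (0.312) as a term, and in limma-voom (0.183). B and plasma cell markers, mostly Jchain and then Cd79b, summed to 169 to 751 and 241 to 321 CPM, stromal and endothelial markers (led by Pecam1 and Col1a1) to 53.3 to 97.9 and 45.4 to 60.1 CPM, and CD8, NK and granulocyte markers (led by Klrb1c and Cd8b1) to at most 6.81 CPM, with Ncr1, S100a8, S100a9, Cpa3 and Mcpt1 at 0 in every library. In bulk RNA, fewer cells of a type and less RNA per cell cannot be told apart, and the part of these other cells in the values of the NF-κB genes was not tested.

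The NF-κB genes were well covered in every library, from 359 estimated counts for Bcl3 in WT2 to 93880 for Tnfaip3 in the library labelled KO1, and together they held between 0.733% (the library labelled KO1) and 1.05% (WT2) of the scaled counts. Tnfaip3 was the most abundant of them. Its mean CPM over the 6 libraries ranked 4 among 32090 genes, and Rel followed at rank 47, Nfkbiz at 103 and Nfkb1 at 116. Relb, the lowest, ranked 2215. To set different genes beside each other, CPM was divided by the length of the principal GENCODE transcript. That adjusts for length alone, and not for base composition or for the use of other transcripts. On this scale Tnfaip3 was at 1112 ± 174 CPM per kilobase (SD, n = 6). Nfkbiz, Rel and Nfkb1 lay close together at 207.7 ± 32.9, 200.4 ± 45.5 and 192.7 ± 31.8 CPM per kilobase, and Nfkbia was at 161.6 ± 24.5. The lower tier held Nfkbid at 74.67 ± 28.2, Bcl3 at 65.22 ± 28.9, Nfkb2 at 41.48 ± 10.7, Rela at 39.88 ± 12.5 and Relb at 35.04 ± 7.34 CPM per kilobase (SD, n = 6 each). Of neighbours in this order, only Tnfaip3 and Nfkbiz, and Nfkbia and Nfkbid, had ranges over the 6 libraries that did not overlap. The per-length CPM of Rel was above that of Rela in each library, with a ratio from 3.52 to 9.96.

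**Figure D1:**
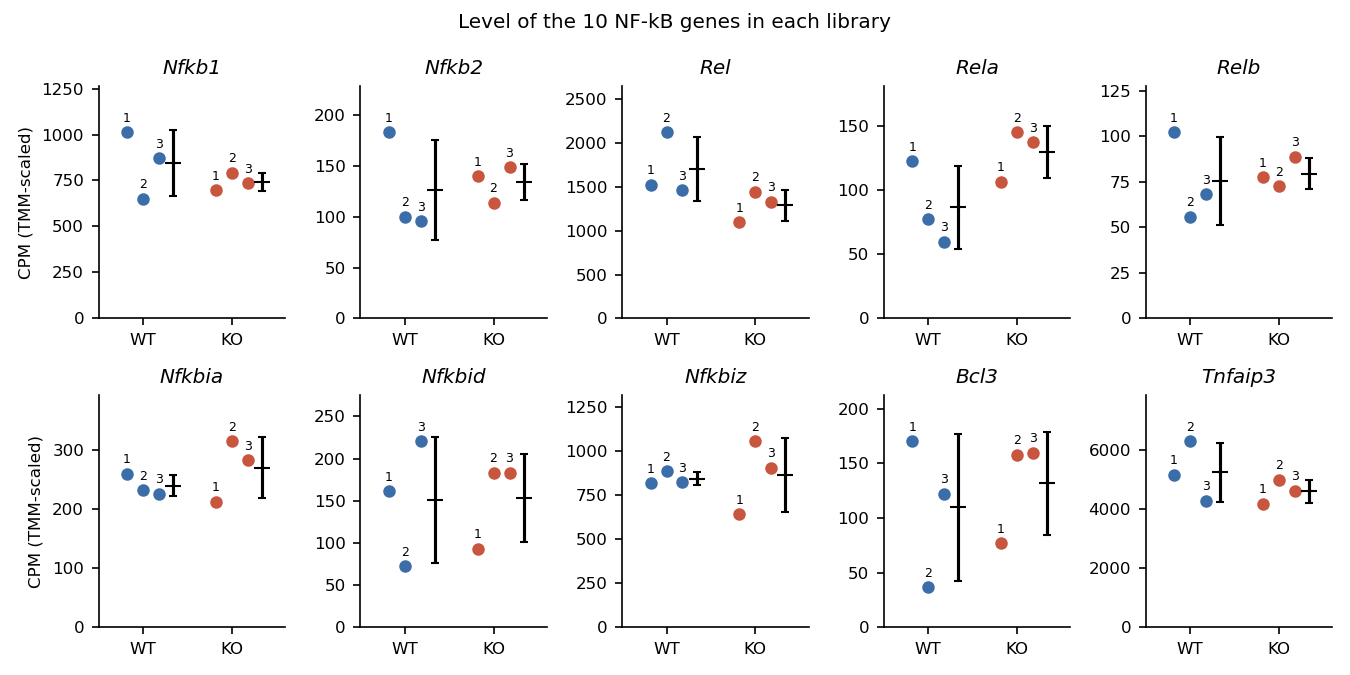
Level of each NF-κB gene in CPM, in 1 panel per gene with its own linear axis. Each point is 1 library, by group, and the group mean is drawn with its SD. The axes differ between panels. The points lie from 4181 to 6280 CPM for Tnfaip3 and from 55.71 to 102.0 CPM for Relb. The WT and KO points overlap in all genes but Rel. There the lowest WT library (1458 CPM) is just above the highest KO library (1445 CPM).

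The first question was whether any of these genes differed between WT and KO Treg cells. None was called: all 10 passed the filter on low counts, and edgeR's quasi-likelihood test with Benjamini-Hochberg adjustment over all genes called 0 of them, where 3 of 12557 genes tested (0.0239%) were called. At an unadjusted p under 0.05 edgeR again counted 0 of 10, against 9.37% of all genes, and DESeq2 called 0 of 10, against 1.89% of its genes. The log2 fold changes of KO over WT were positive in 7 members and negative in 3, with a median of 0.06 against -0.04 over all genes tested. The 95% intervals of 8 members lay within 1 log2 unit in either direction, and those of Rela and Bcl3 reached up to 1.23 and 1.36. The groups did not overlap in 1 member, Rel, against 17.7% of all genes tested. It was lower in KO, as were 8.01% of all genes, and 0 members were higher without overlap, against 9.68% of all genes.

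Levels over a group are given below in replicate order, WT1, WT2, WT3 and then KO1, KO2, KO3, so that the first KO value is always of the library labelled KO1. Of the 5 subunits, Rel (Entrez 19696, chromosome 11), the gene of c-Rel, was at 1525, 2119 and 1458 CPM over the WT libraries and 1099, 1445 and 1331 CPM over the KO libraries. Every KO library lay below every WT library, with WT3 and KO2 nearly touching, and WT2 stood highest. The log2 fold change was -0.40 (SE 0.21, 95% interval -0.86 to 0.07) and was not called (edgeR, adjusted p = 0.573). It was -0.22 without WT2, and also with RNA integrity as a covariate. Rela (Entrez 19697, chromosome 19), the gene of p65, was at 122.7, 77.39 and 60.02 CPM over WT and 106.9, 145.2 and 137.7 CPM over KO. WT1 lay above the library labelled KO1, so the groups overlapped, while KO2 and KO3 were the highest of the 6. Its log2 fold change was 0.58 (SE 0.29, interval -0.06 to 1.23) and was not called (edgeR, adjusted p = 0.556). It was 0.92 without WT1 and 0.38 without WT3.

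Nfkb1 (Entrez 18033, chromosome 3), which encodes the p105 precursor of p50, was at 1011, 651.7 and 870.3 CPM over the WT libraries and 698.7, 792.2 and 736.3 CPM over the KO libraries. The KO libraries lay inside the WT range, and WT2 was the lowest of all. The log2 fold change was -0.19 (SE 0.20, interval -0.64 to 0.27; edgeR, adjusted p = 0.803). It was -0.041 without WT1 and -0.35 without WT2. The groups also overlapped for the noncanonical subunits. Nfkb2 (Entrez 18034, chromosome 19), the gene of the p100 precursor of p52, was at 183.1, 100.2 and 95.48 CPM over WT and 140.2, 114.1 and 148.7 CPM over KO. Relb (Entrez 19698, chromosome 7), whose product is the partner of p52, was at 102.0, 55.71 and 68.19 CPM over WT and 77.31, 72.52 and 88.65 CPM over KO. Both were highest in WT1, with log2 fold changes of 0.09 (SE 0.28, interval -0.54 to 0.72) for Nfkb2 and 0.08 (SE 0.27, interval -0.52 to 0.68) for Relb, and edgeR adjusted p of 0.940 and 0.946.

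The composition of the subunit pool was then described, as each subunit's share of the summed per-length CPM of the 5 genes. Rel and Nfkb1 had the largest shares in every library, Rel from 33.8% to 53.8% and Nfkb1 from 30.0% to 43.1%. Rela held 7.54%, 5.40% and 4.51% over the WT libraries and 9.03%, 10.5% and 10.2% over the KO libraries, or 5.82% ± 1.56 in WT and 9.93% ± 0.791 in KO (SD, n = 3). The groups did not overlap for Rela, and they overlapped for each of the other subunits. The same held for shares of CPM without length, which only reweights the genes and is no separate support. How often such shares separate the groups in other sets of genes was not computed. Rel held 34.1%, 53.8% and 39.9% in WT and 33.8%, 38.1% and 36.0% in KO, and the groups overlapped. The ratio of Rel to Rela per length was 4.52, 9.96 and 8.84 over the WT libraries and 3.74, 3.62 and 3.52 over the KO libraries. All KO libraries lay below all WT libraries, and the WT libraries differed among themselves by more than WT1 differed from KO. Of the 10 ratios between subunits, 2 separated the groups, Rel to Rela and Nfkb1 to Rela, and of the 45 ratios among all 10 genes 6 did, where 16.6% of all pairs of tested genes did. The members' ratios are thus near the share over all genes. One of the 6 was Rel to its inhibitor Nfkbia, at 1.24, 1.93 and 1.36 over the WT libraries and 1.09, 0.971 and 0.993 over the KO libraries. These ratios were picked after their values were seen and carry no test.

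**Figure D2:**
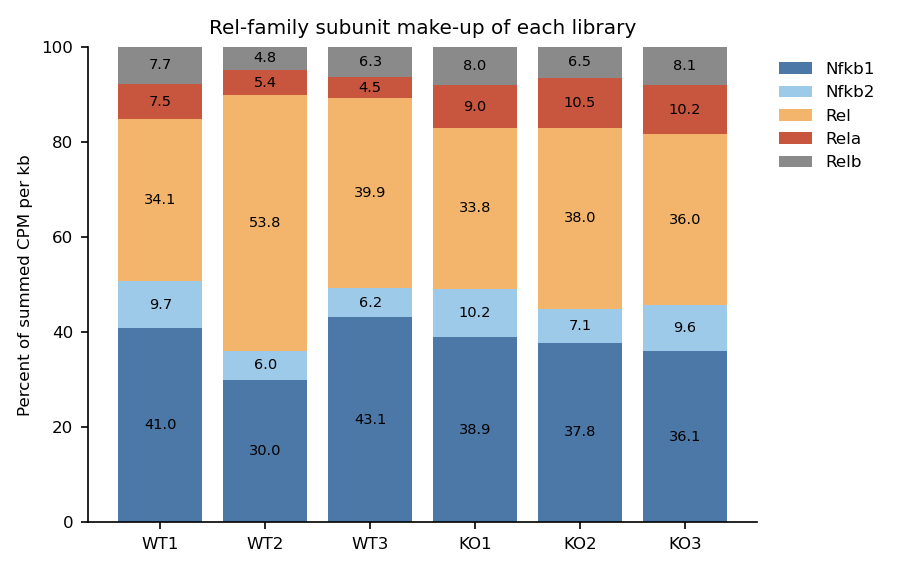
Share of each subunit in the summed per-length CPM of the 5 subunit genes, in percent, as 1 stacked bar per library. Rela takes 4.51% to 7.54% in the WT libraries and 9.03% to 10.5% in the KO libraries, and Rel is widest in WT2 at 53.8%.

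Base composition is given beside these values. Rela transcripts have 59.4% GC and Rel transcripts 42.5%, where the median of the genes tested was 49.9%. Genes within 2 percentage points of the GC content of Rela had a median log2 fold change of 0.26 (1205 genes), and those as close to Rel a median of -0.21 (1851 genes). With the trend of expression on GC content removed from each library, a step chosen after the data were seen, the log2 fold change of Rela was 0.17 and that of Rel -0.22, and the groups of Rel overlapped. The ratio of Rel to Rela was then 4.73, 5.53 and 8.73 in WT and 4.25, 4.14 and 5.13 in KO, and overlapped. The share of Rela still did not overlap, at 7.45%, 7.63% and 4.60% in WT and 8.44%, 9.73% and 8.41% in KO. In that setting Nfkb1 (968.2, 772.0 and 846.3 CPM over WT, 655.2, 749.4 and 649.2 CPM over KO) and also Relb (98.77, 85.62 and 69.59 CPM in WT, 66.54, 62.65 and 65.24 CPM in KO) did not overlap, against 17.1% of all genes there.

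Among the inhibitors, Nfkbia (Entrez 18035, chromosome 12), which encodes IκBα, was at 260.1, 232.6 and 226.1 CPM over the WT libraries and 213.0, 314.6 and 283.3 CPM over the KO libraries. The library labelled KO1 was the lowest and KO2 the highest, so the KO group enclosed the WT group. The log2 fold change was 0.17 (SE 0.20, interval -0.28 to 0.63; edgeR, adjusted p = 0.818). It was 0.31 without the library labelled KO1 and 0.057 without KO2. Tnfaip3 (Entrez 21929, chromosome 10), whose product A20 removes and adds ubiquitin on signalling proteins upstream of the IκB kinase, was at 5160, 6280 and 4283 CPM over WT and 4181, 4982 and 4611 CPM over KO. WT2 was highest and the library labelled KO1 lowest, and the groups overlapped. Its log2 fold change was -0.19 (SE 0.19, interval -0.63 to 0.24; edgeR, adjusted p = 0.787). It was -0.052 without WT2 and -0.315 without WT3.

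The nuclear IκB proteins bind NF-κB at DNA, where they can raise or lower the transcription of its targets. Nfkbiz (Entrez 80859, chromosome 16), the gene of IκBζ, was at 818.0, 887.0 and 823.8 CPM over the WT libraries and 640.2, 1054 and 905.1 CPM over the KO libraries. The WT libraries lay within a coefficient of variation of 4.54%, and the KO libraries, with 24.2%, spread to both sides of them. The log2 fold change was 0.04 (SE 0.21, interval -0.43 to 0.51; edgeR, adjusted p = 0.967). Nfkbid (Entrez 243910, chromosome 7), the gene of IκBNS, known for a part in the induction of Foxp3, was at 161.3, 72.36 and 220.2 CPM over WT and 93.30, 183.0 and 183.4 CPM over KO. WT2 and the library labelled KO1 were low and the other 4 high, in both groups alike, with a log2 fold change of 0.02 (SE 0.40, interval -0.88 to 0.91; edgeR, adjusted p = 0.993). Bcl3 (Entrez 12051, chromosome 7), whose product pairs with p50 and p52 homodimers, was at 169.9, 36.90 and 122.3 CPM over WT and 77.09, 157.9 and 159.8 CPM over KO. It showed the same pair of low libraries, and WT1 was 4.60 times WT2, with a log2 fold change of 0.26 (SE 0.49, interval -0.83 to 1.36; edgeR, adjusted p = 0.901).

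**Figure D3:**
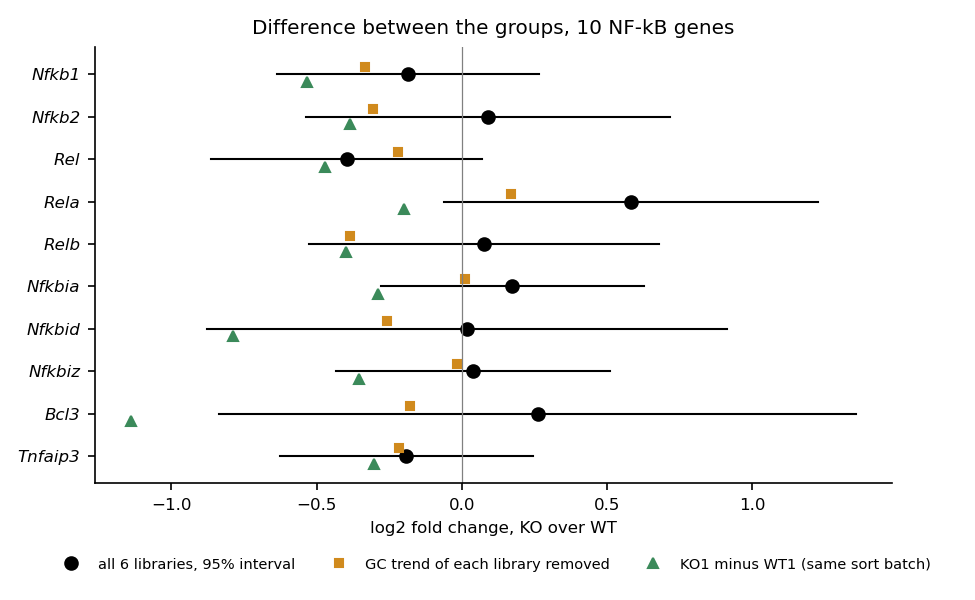
Log2 fold change of KO over WT for each NF-κB gene with its 95% interval from edgeR, beside the difference within the 1 sort batch that holds both groups and the value with the GC trend removed. All 10 intervals include 0, and all 10 within-batch differences are negative.

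The genes differed in how steady they were within groups. Over the 3191 genes with a mean of at least 50 CPM, the median within-group SD was 0.302 on the log2 scale. Bcl3, at 0.922, was more variable than 99.2% of them, and Nfkbid, at 0.707, more than 96.9%. Tnfaip3 at 0.215, Nfkbia at 0.219 and Nfkb1 at 0.237 lay below the median. WT2, the library with the lowest RNA integrity, was the highest of the 6 for Rel and Tnfaip3 and the lowest for Nfkb1, Relb, Nfkbid and Bcl3. That is 6 of 10 members at an extreme, where 52.5% of all genes had an extreme in WT2. Bcl3 in WT2 was 1.84 log2 units below the mean of the other libraries and genes of like GC content 0.694 below, and Tnfaip3 was 0.441 above with genes of like GC content at about 0. The part of RNA integrity in these values was not tested. The early response genes to tissue dissociation, led by Dusp1 and Fosb, summed to 11660 to 16230 CPM in WT and 9914 to 12300 CPM in KO. Their sum was lowest in the library labelled KO1, though Dusp1 was lowest in WT2 (2356 CPM) and Fosb in KO3 (1438 CPM). Of these 10 early response genes, 0 were called by edgeR. Their part in the NF-κB genes was not tested.

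WT1 and the library labelled KO1 were sorted in 1 batch, and the other batches hold 1 group each. All 10 NF-κB genes were lower in the library labelled KO1 than in WT1, with a median log2 difference of -0.39 against 0.01 over all genes, of which 48.8% were lower. The differences ran from -0.20 for Rela and -0.29 for Nfkbia to -0.79 for Nfkbid and -1.14 for Bcl3, 1 library each and with no test. The 7 members with a positive fold change between the groups thus had the opposite sign within the batch, while Nfkb1 (-0.53), Rel (-0.47) and Tnfaip3 (-0.30) had the same sign in both. The library labelled KO1 was the lowest of the 6 for Rel, Nfkbia, Nfkbiz and Tnfaip3, where 14.9% of all genes were lowest there. WT1 was the highest of the 6 for Nfkb1, Nfkb2, Relb and Bcl3, where 17.1% of all genes were highest there.

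**Figure D4:**
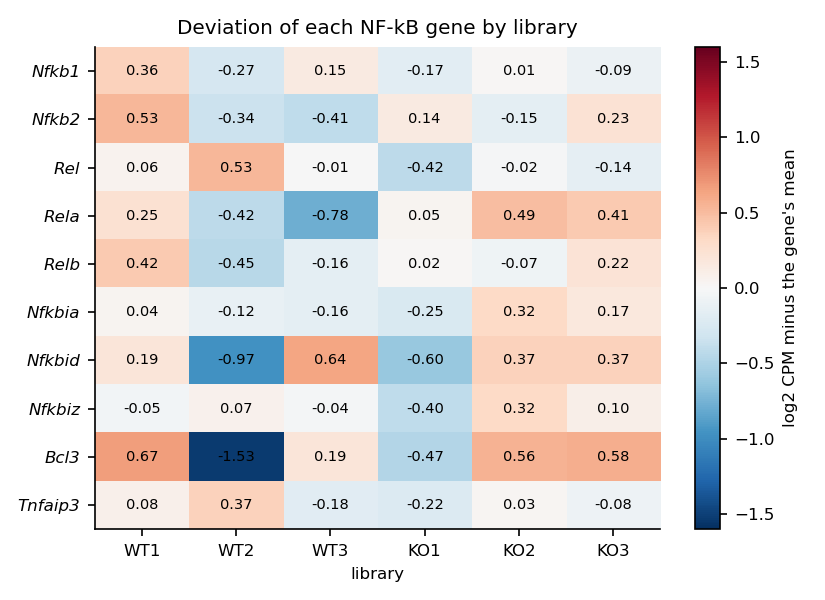
Log2 CPM of each NF-κB gene minus its mean over the 6 libraries, as a coloured grid of genes by libraries with the value in each cell. Bcl3 and Nfkbid swing furthest, while Rel and Tnfaip3 go up in WT2. The mean over the genes, which is not drawn, is 0.255 in WT1, -0.312 in WT2 and -0.231 in the library labelled KO1.

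Averaged over the 10 genes, the centred log2 profile was 0.26, -0.31 and -0.08 over the WT libraries and -0.23, 0.19 and 0.18 over the KO libraries. The genes with the profile most like it, by the root-mean-square difference over the 6 libraries, were Marveld1 (0.0407), Usp38 (0.0465) and Mxi1 (0.0605), where the median of 12547 other genes was 0.597. Marveld1 was at 24.0, 16.3 and 18.1 CPM over WT and 16.3, 23.1 and 23.2 CPM over KO. KO2 and KO3 were nearly equal in the mean profile, and they were also the closest pair of libraries over all genes, with a median chi-square per gene of 4.16 against 21.0 to 40.3 in the other pairs of a group. The labels give KO2 and KO3 different sort batches and do not say whether their pools shared mice. If they shared material, the SEs and p-values given here, which take 3 independent KO libraries, would be too small.

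The authors' deposited table gave the same picture for calls. It called 0 of the 10 members at an adjusted p under 0.05, against 2.41% of its 13509 genes with an adjusted p. In the authors' deposited table the smallest adjusted p was 0.452, for Rela, with a log2 fold change of 0.69. The authors' deposited table gave Rel a log2 fold change of -0.38 and Nfkb1 one of -0.27. The sign in the authors' deposited table was opposite to that of edgeR in 3 of 10 members, Bcl3 (-0.47 against 0.26), Relb (-0.16 against 0.08) and Nfkbid (-0.019 against 0.017), and none of these was called by either.

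The wider pathway was described from 4 lists with 74 genes, of which 73 were tested and 0 called by edgeR or DESeq2. At an unadjusted p under 0.05 edgeR counted 7 of them (9.59%, against 9.37% of all genes), and the groups did not overlap in 10 (13.7%, against 17.7%). These shares lay near those of all genes. The median log2 fold change was 0.07, with 41 positive, where 47.4% of all genes tested were positive. Among 22 tested genes of the IκB kinase complex, its adaptors and upstream kinases, 10 were positive with a median of -0.08. Map3k14, the gene of NIK, the kinase of the noncanonical branch, was at 43.29, 60.85 and 85.84 CPM over the WT libraries and 103.1, 127.7 and 124.6 CPM over the KO libraries. Every KO library was above every WT library, with a log2 fold change of 0.90 (SE 0.28; edgeR, adjusted p = 0.436), and of 0.49 with the GC trend removed. Chuk, the gene of IKKα, was at 43.38, 52.42 and 35.97 CPM over WT and 32.64, 30.66 and 33.35 CPM over KO, all lower, with a log2 fold change of -0.45 (edgeR, adjusted p = 0.626), and -0.25 with the GC trend removed. Map3k7, the gene of the kinase TAK1, had -0.43 with overlapping groups (edgeR, adjusted p = 0.651), -0.12 without WT2 and -0.094 with RNA integrity as a covariate.

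Among 14 other inhibitors and ubiquitin regulators, 7 were positive and 7 negative, with a median log2 fold change of 0.0015. The genes of the other cytoplasmic IκB proteins lay apart in opposite directions, neither of them called. Nfkbie, the gene of IκBε, was at 149.2, 159.1 and 183.2 CPM over WT and 242.6, 211.1 and 232.1 CPM over KO, with a log2 fold change of 0.48 (SE 0.18; edgeR, adjusted p = 0.492), and 0.20 with the GC trend removed. Nfkbib, the gene of IκBβ, was at 127.6, 77.39 and 97.13 CPM over WT and 68.62, 55.91 and 79.55 CPM over KO, with -0.57 (SE 0.26; edgeR, adjusted p = 0.542), -0.36 without WT1 and -0.95 with the GC trend removed. The groups did not overlap for Nfkbie and overlapped narrowly for Nfkbib. Zc3h12a, which encodes the RNA-degrading enzyme Regnase-1, was at 112.5, 59.20 and 94.63 CPM over WT and 114.8, 171.6 and 170.1 CPM over KO, above WT in each library, with 0.78 (SE 0.28; edgeR, adjusted p = 0.487), 0.48 with the GC trend removed and 0.030 with all sort batches as a term.

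Among 14 receptors that signal to NF-κB, 11 had a positive log2 fold change and the median was 0.27, where 47.4% of all genes tested were positive. Tnfrsf4, the gene of the costimulator OX40, was at 286.5, 223.1 and 356.4 CPM over WT and 305.0, 549.6 and 551.1 CPM over KO, high in KO2 and KO3 and within the WT range in the library labelled KO1 (log2 fold change 0.70; edgeR, adjusted p = 0.499), with 0.090 when all sort batches were a term. Tnfrsf25, the gene of the TNF family receptor DR3, had 0.58 (edgeR, adjusted p = 0.640), and 0.20 with the GC trend removed. Ltbr, the lymphotoxin β receptor, known from stromal and myeloid cells, had 0, 0 and 1 estimated counts in WT and 26, 28 and 16 in KO, a scaled ratio of 48.5 (8.42 to 1940 by counting error alone at 95%; edgeR, adjusted p = 0.397). The macrophage and dendritic cell markers, summed, were also higher in KO2 and the library labelled KO1 than in any WT library, and their part in the Ltbr counts was not tested. Among 23 tested targets, 13 were positive with a median of 0.08. Ltb, the gene of lymphotoxin β, was at 14.15, 11.51 and 6.01 CPM over WT and 27.88, 20.69 and 29.09 CPM over KO, each KO library above each WT library (log2 fold change 1.30, SE 0.45; edgeR, adjusted p = 0.487), with 0.69 when the GC trend was removed. Bcl2l1, which encodes the survival protein Bcl-xL, was at 71.67, 56.22 and 83.57 CPM over WT and 27.83, 50.50 and 51.85 CPM over KO. Each KO library was below each WT library (-0.70, SE 0.31; edgeR, adjusted p = 0.527). Its log2 fold change was -0.47 without the library labelled KO1. It was -1.36 with all sort batches as a term, where the estimate rests on that library against WT1. Tnfaip8, a TNF-induced regulator of cell death, had -0.68 (edgeR, adjusted p = 0.544), with its highest level, 164 CPM, in WT2 and a value of -0.26 without that library.

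**Figure D5:**
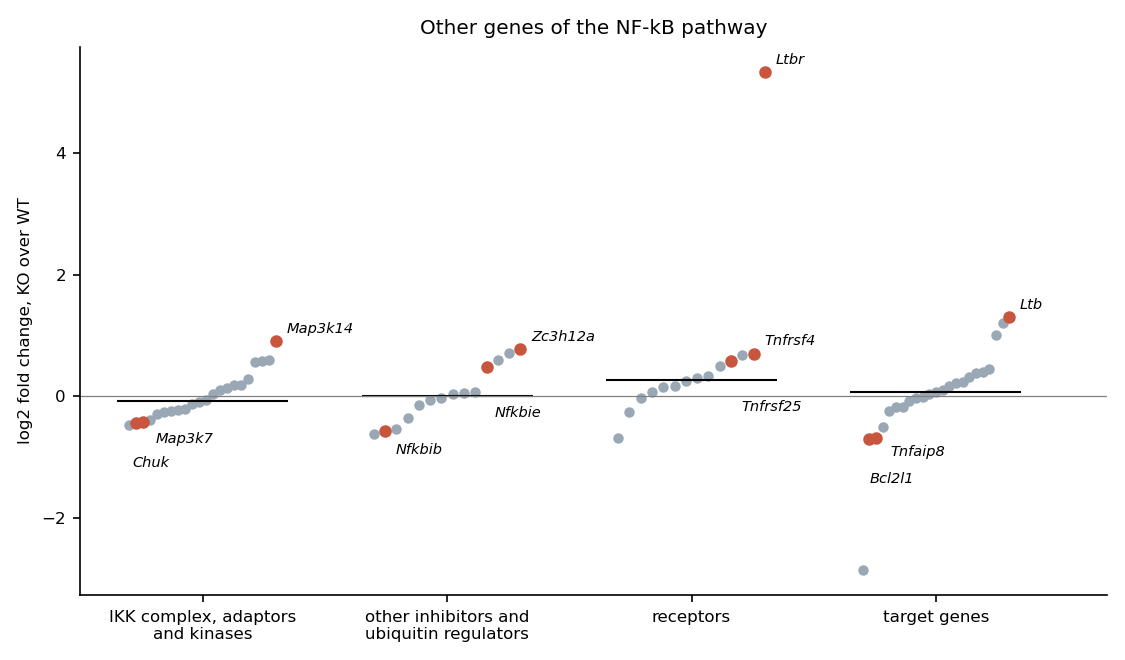
Log2 fold change of KO over WT for every tested gene of the 4 pathway lists, 1 point per gene, with the median of each list as a line and the 12 genes described in the text named. Points lie on both sides of 0 in each list and none was called, and the fitted value of Ltbr, with 1 count in WT, depends on the prior count.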

How the data were processed

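The authors deposited a table of estimated counts per gene and library, already rounded to whole numbers, and a comparison of the groups whose log2 fold changes and p-values are the authors' own, per the file headers. The submitters' processing notes name Salmon 1.4.0, DESeq2 1.34.0, fastp 0.20.0 and R 4.1.2 without saying what each did. RNA was amplified with the Ovation RNASeq System V2 kit before library preparation, per the labels' protocols, which can distort the levels of rare transcripts. Genome build, annotation, strand and how transcripts became genes: each is not given in the sources used here. Another 6 columns of normalized values match no sample by name and were not used. The estimated counts keep differences in transcript length.

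Rows with the same Entrez identifier were summed (71 removed), which left 32090 genes. filterByExpr (minimum count 10, minimum total 15) kept 12557, which were scaled by TMM and fitted with edgeR 4.0.16 in R 4.3.3 by the quasi-likelihood test, with no term but genotype, at an adjusted p (Benjamini-Hochberg over all genes) under 0.05. The script was tested on simulated data. CPM values use TMM-scaled library sizes, and log2 CPM a prior count of 2. Lengths and GC content are of the principal GENCODE vM21 transcript by symbol, promoter windows from RefSeq. The counting interval of Ltbr covers counting error only. P-values rest on the spread between pools and assume that the pools are independent.

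The members and lists were chosen with earlier results of these data known. Named were all members, the 3 genes of each pathway list with the smallest p, the 2 most abundant of each marker list, called genes, Il23r, sex-linked genes, and the 3 genes with the profile most like the members' mean. Alternatives were other scalings (upper quartile, DESeq2 size factors, none beyond library size), other filters (50 counts in 3 libraries, or none), the Wald test of DESeq2 1.42.0 (5325 of 18841 adjusted p-values stayed empty), limma-voom 3.58.1 with quality weights, terms for sort batch, RNA integrity number or replicate number (as a block), KO2 and KO3 summed, each library left out, and, chosen after the data were seen, the GC trend of each library removed.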

Additional observations from a re-analysis of the deposited data

How the results depend on the processing

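None of the 10 NF-κB genes and none of the pathway genes was called under any alternative. The count of genes called over the whole table, 3, was 9 without a filter, 255 by DESeq2, 1 with RNA integrity as a covariate, 1 with KO2 and KO3 summed, and 1 to 4 with a library left out. Libraries with the same replicate number hardly deviated together (correlations of same-numbered deviations 0.00931, 0.0489 and 0.0258). WT1 with KO3, of unlike number, had 0.0508. The deviations are from means of 3 libraries, and WT1 and the library labelled KO1 share a sort batch. These values thus do not decide whether the numbers mark pairs. With the replicate number as a block, 3 genes and 0 NF-κB genes were called.

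Rel was the only member without overlap between groups. The count was 0 with upper-quartile scaling (17.6% of all genes there) and 2 with the GC trend removed (Nfkb1 and Relb, 17.1%). With a library left out, the count was 1 to 4. It was 4 without WT1 (33.4% of all genes there) and 4 without the library labelled KO1 (33.3%). It was 2 without WT2 (29.7%) and without WT3 (31.0%), and 1 without KO2 (21.4%) and without KO3 (20.8%).

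Nfkb1, Rel and Tnfaip3 kept a negative log2 fold change in all 19 alternatives, but of different size: with a library left out, Nfkb1 lay between -0.353 and -0.0411, Rel between -0.494 and -0.219 and Tnfaip3 between -0.315 and -0.0518. Rela lay between 0.379 and 0.919 and Nfkbia between 0.0571 and 0.312. With all 4 sort batches as a term, where the genotype estimate rests on the library labelled KO1 against WT1, values turned to -1.14 for Bcl3, -0.385 for Nfkb2, -0.288 for Nfkbia, -0.79 for Nfkbid, -0.354 for Nfkbiz, -0.199 for Rela, -0.40 for Relb and 0.0804 for Tnfaip8. With the RNA integrity number it was -0.237 for Bcl3, -0.0554 for Nfkb2, -0.391 for Nfkbid and -0.112 for Relb. With the GC trend removed it was -0.178 for Bcl3, -0.306 for Nfkb2, -0.257 for Nfkbid, -0.0145 for Nfkbiz and -0.385 for Relb. With KO2 and KO3 summed, Nfkbid had -0.121 and Nfkbiz -0.0482, and with the shared batch against the rest as a term Nfkbid had -0.0435. With a library left out, the range was -0.161 to 0.71 for Bcl3, -0.0738 to 0.456 for Nfkb2, -0.33 to 0.393 for Nfkbid, -0.119 to 0.209 for Nfkbiz and -0.107 to 0.355 for Relb. Apart from what each alternative's construction changes, the cause was not tested. The lowest estimated count of a member in a library was 359.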
